A study of Mus musculus with 8 samples.

Results

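Heat shock proteins and their partners, the chaperones that fold proteins in the cytosol and mitochondria, were followed in mouse liver after a pulse of growth hormone (GH). The set holds 35 genes given by symbol, and all 35 were found among the 24197 genes of the deposited table, 1 row each. By role they are 6 HSP70 and HSP110 genes, 6 J-domain proteins, 2 HSP90 genes, 7 co-chaperones, 4 mitochondrial chaperones, 7 subunits of the TRiC chaperonin, 2 small heat shock proteins and the transcription factor Hsf1. Livers came from hypophysectomized male CD-1 mice, operated at 7 weeks of age and used at 11 weeks, so every group lacked the pituitary, the source of GH. Animals were killed 30, 90 or 240 min after a single intraperitoneal dose of recombinant rat GH (125 ng per g body weight), and the comparison group is called untreated. The labels disagree on that group, since one text speaks of a vehicle injection and another of untreated mice, and the effect of an injection therefore cannot be told apart from that of GH. Each of the 4 groups had 2 pools of liver RNA with 4 mice per pool, giving 8 strand-specific poly-A libraries.

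The table gives the authors' mean FPKM (fragments per kilobase of transcript, scaled to library size) of each group, a normalized ratio of each GH group over untreated and an adjusted p. Each was given once for the whole gene body and once for intronic reads alone, which come largely from RNA not yet spliced. Below, a call means an adjusted p under 0.05 as deposited. No value of a single pool is in the table, so no spread can be printed and no test was added. Because mice were pooled, the p-values do not show how mice vary. The 3 comparisons share the same untreated pools, and no difference between times was tested.

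HSP70 proteins bind unfolded stretches of client proteins in a cycle driven by ATP. J-domain proteins bring clients and start the cycle, and nucleotide exchange factors such as the HSP110 proteins end it. Clients may then pass to HSP90, which matures kinases and steroid hormone receptors with the help of co-chaperones, or to the barrel-shaped chaperonins, TRiC in the cytosol and HSP60 with HSP10 in mitochondria. Many of these genes are switched on by the transcription factor HSF1, which binds heat shock elements, repeats of the unit GAA in alternating orientation.

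Some chaperone transcripts in several of these roles were called higher after GH. At 90 min 22.9% of the set was called higher, not far above the 15.9% of all expressed genes. At 240 min the share was 40%, beside 14.4%. The genes with the largest gene-body ratios were Chordc1, Hsp90aa1, Hsph1 and Bag3 at 240 min and Hsph1, Chordc1, Hspa1b and Hsp90aa1 at 90 min. The sequences below show where the letters of a heat shock element lie at the starts of 6 genes called higher, and at Hspa1a, whose stretch is nearly that of Hspa1b. Capitals mark every match to GAANNTTC or TTCNNGAA, a pair of facing units, and overlapping matches run together. Only stretches that hold a match are printed. Each is read 5′ to 3′ on the gene's strand from RefSeq on GRCm38.p6 and runs from 150 bases before to 30 bases after the start site, except the last, which holds the 215 bases between the Hspd1 and Hspe1 starts, read on the Hspe1 strand.
Chordc1 (chr9:18292117-18292296, plus strand): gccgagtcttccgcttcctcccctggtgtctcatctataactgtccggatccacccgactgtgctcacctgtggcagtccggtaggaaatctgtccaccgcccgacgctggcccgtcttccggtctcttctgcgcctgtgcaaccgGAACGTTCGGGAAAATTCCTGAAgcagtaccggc
Hsph1 (chr5:149636286-149636465, minus strand): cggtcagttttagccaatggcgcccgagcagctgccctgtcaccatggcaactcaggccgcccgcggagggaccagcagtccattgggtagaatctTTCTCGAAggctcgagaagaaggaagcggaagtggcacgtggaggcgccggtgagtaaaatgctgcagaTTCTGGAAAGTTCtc
Dnajb6 (chr5:29735748-29735927, plus strand): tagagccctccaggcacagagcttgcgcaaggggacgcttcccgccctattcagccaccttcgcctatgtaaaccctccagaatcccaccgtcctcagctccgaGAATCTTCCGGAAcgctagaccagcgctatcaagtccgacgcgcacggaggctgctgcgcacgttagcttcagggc
Hspa1b (chr17:34959209-34959388, minus strand): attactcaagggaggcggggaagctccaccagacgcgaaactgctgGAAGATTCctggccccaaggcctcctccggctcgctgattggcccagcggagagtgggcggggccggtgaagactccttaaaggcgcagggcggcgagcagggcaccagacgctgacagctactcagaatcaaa
Hspa1a (chr17:34972127-34972306, minus strand): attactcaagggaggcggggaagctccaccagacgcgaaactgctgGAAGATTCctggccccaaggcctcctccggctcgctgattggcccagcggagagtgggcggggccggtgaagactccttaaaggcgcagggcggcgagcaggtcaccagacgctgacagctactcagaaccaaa
Hspd1 and Hspe1 (chr1:55087933-55088147, plus strand): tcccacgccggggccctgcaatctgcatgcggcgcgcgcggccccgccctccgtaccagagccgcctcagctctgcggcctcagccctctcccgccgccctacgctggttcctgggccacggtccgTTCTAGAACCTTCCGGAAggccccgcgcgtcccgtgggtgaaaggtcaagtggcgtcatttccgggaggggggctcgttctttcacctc
The Chordc1 start held the longest run, 23 bases made of 4 overlapping matches. In the stretch shared by Hspd1 and Hspe1, 3 matches joined into 1 run of 18 bases. The Hsph1 stretch held 1 separate pair of units and 1 run, and the Dnajb6 stretch held 1 run of 13 bases.

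RefSeq windows from 250 bases before to 50 after the start were found for 28 of the 35 genes, with 38 windows in all. Those without one were Cct4, Hsf1, Hsp90aa1, Hsp90ab1, Hspa8, Hspa9 and St13. A pair of facing units was present for 17 of the 28 genes (60.7%), against 17% of 27025 genes with a window. A row of 3 alternating units, with the same 2-base spacing on either strand, was present for 5 of the 28 genes (17.9%), against 0.662% of all genes. The 5 were Chordc1, Hsph1, Dnajb6, Hspd1 and Hspe1, and all 5 were called higher at 240 min, against 2 of them at 90 min. Outside the chaperone set the shares were smaller: 9 of 45 expressed genes with 3 units (20%) were called higher at 240 min, and 173 of 1137 with a pair of units (15.2%). Among 6889 expressed non-members with no match, 1005 (14.6%) were called higher at that time. At 90 min the non-members called higher were 5 of 45 with 3 units (11.1%) and 1120 of 6889 with no match (16.3%). Median log2 ratios of non-members at 240 min were -0.013 with 3 units and 0.033 with no match. Of the 28 chaperone genes with a window, those called higher at 240 min were 8 of 17 with a pair and 4 of 11 without any match. At 90 min they were 5 of 17 and 1 of 11. Genes with 3 units are counted among those with a pair, for members and non-members alike. The 8 are thus the 5 genes with 3 units and Bag3, Dnaja1 and Hspa1b, and most genes with a pair alone were not called. The 4 without a match were Hspa4, Dnaja2, Stip1 and Cct3. Dnajb1, not called, also had no match. Hspd1 and Hspe1 share their stretch, and the Hspa1a and Hspa1b windows agree at 296 of 300 bases, so these genes are not independent. A match is a description of letters, and binding was not measured.

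Library totals recovered from the smallest steps of the FPKM values ranged from 5940000 to 17120000 reads, and the pools of the 240 min group were the most unequal (5940000 and 14150000). On 1 kb of transcript, 3 reads in the smaller pool correspond to a mean of 0.0975 to 0.253 FPKM across the groups. All 35 chaperone genes lay above that and above a mean of 1 FPKM, the minimum for a gene counted as expressed here, which 10736 genes passed. Socs2, a direct GH target, reached 15.2, 24.5 and 33.3 mean FPKM at 30, 90 and 240 min, against 1.18 in untreated livers. Summed hepatocyte markers were lower in each GH group (45645, 41760 and 35278 FPKM at 30, 90 and 240 min, against 51621 in untreated livers), with 3 of 5 called lower at 90 min and at 240 min and 1 of 5 called higher at 90 min. Summed cholangiocyte markers were at 7.62 FPKM at 240 min, against 2.87 in untreated livers, with 2 of 4 called higher at that time. Neutrophil markers summed to 12.1, 45.5 and 19.1 FPKM at 30, 90 and 240 min, against 31.6 in untreated livers, with 1 of 4 called higher at 90 min and 2 of 4 lower at 240 min. Of 4 stellate cell markers, 2 were called higher and 1 lower at 90 min and 1 higher at 240 min, with sums of 71.3 to 82.2 FPKM over the 4 groups. Of 4 Kupffer cell markers, 1 was called lower at each time (sums of 78.3 to 109.7 FPKM). Sums ranged from 64.1 to 74.5 FPKM for endothelium, 1.153 to 2.22 for T cells, 2.31 to 4.23 for B cells and 184.6 to 261.2 for red cells, and of these 1 B cell and 1 red cell marker were called, lower at 90 min. No marker was at 0 in all groups, and Adgre1 and Ly6g were not matched. Their part in the chaperone values was not tested. In bulk liver, more RNA per cell and more cells of a type that expresses a gene cannot be told apart.

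The set spanned a wide range of levels. In untreated livers Hspa8 was highest at 383.7 mean FPKM and Dnaja4 lowest at 1.75 mean FPKM, with a median of 31.4. Summed over the 35 genes, mean FPKM was 2119 in untreated livers and 2197, 2461 and 3097 at 30, 90 and 240 min. That was 0.465% of all gene-body FPKM in untreated livers and 0.510%, 0.617% and 0.724% at 30, 90 and 240 min. Hspa8 alone made up 24.1% of the set's sum at 240 min, against 18.1% in untreated livers.

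At 30 min the authors' deposited table called none of the 35 genes in either direction over the gene body, when 0.224% of expressed genes were called higher and 0.289% lower. At 90 min 8 (22.9%) were called higher and 1 lower, beside 15.9% and 12.5% of expressed genes. At 240 min 14 (40%) were called higher and 0 lower, beside 14.4% and 8.58% of expressed genes. The share called higher was thus somewhat above the background at 90 min and further above it at 240 min. The median log2 ratio of the set was 0.05, 0.10 and 0.36 at 30, 90 and 240 min, and that of all expressed genes was 0.02, -0.01 and 0.03. At 240 min 31 of the 35 ratios were above 1, beside 53% of those of expressed genes. By level, 1 of 6 chaperone genes with a mean of 1 to 10 FPKM was called higher at 240 min, beside 13.7% of expressed genes in that range. The counts were 9 of 18 at 10 to 50 FPKM, beside 17.5%, and 4 of 11 from 50 FPKM, beside 9.86%. At 90 min they were 2 of 6 beside 17.4%, 4 of 18 beside 15.5% and 2 of 11 beside 7.47%, in the same order.

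**Figure D1:**
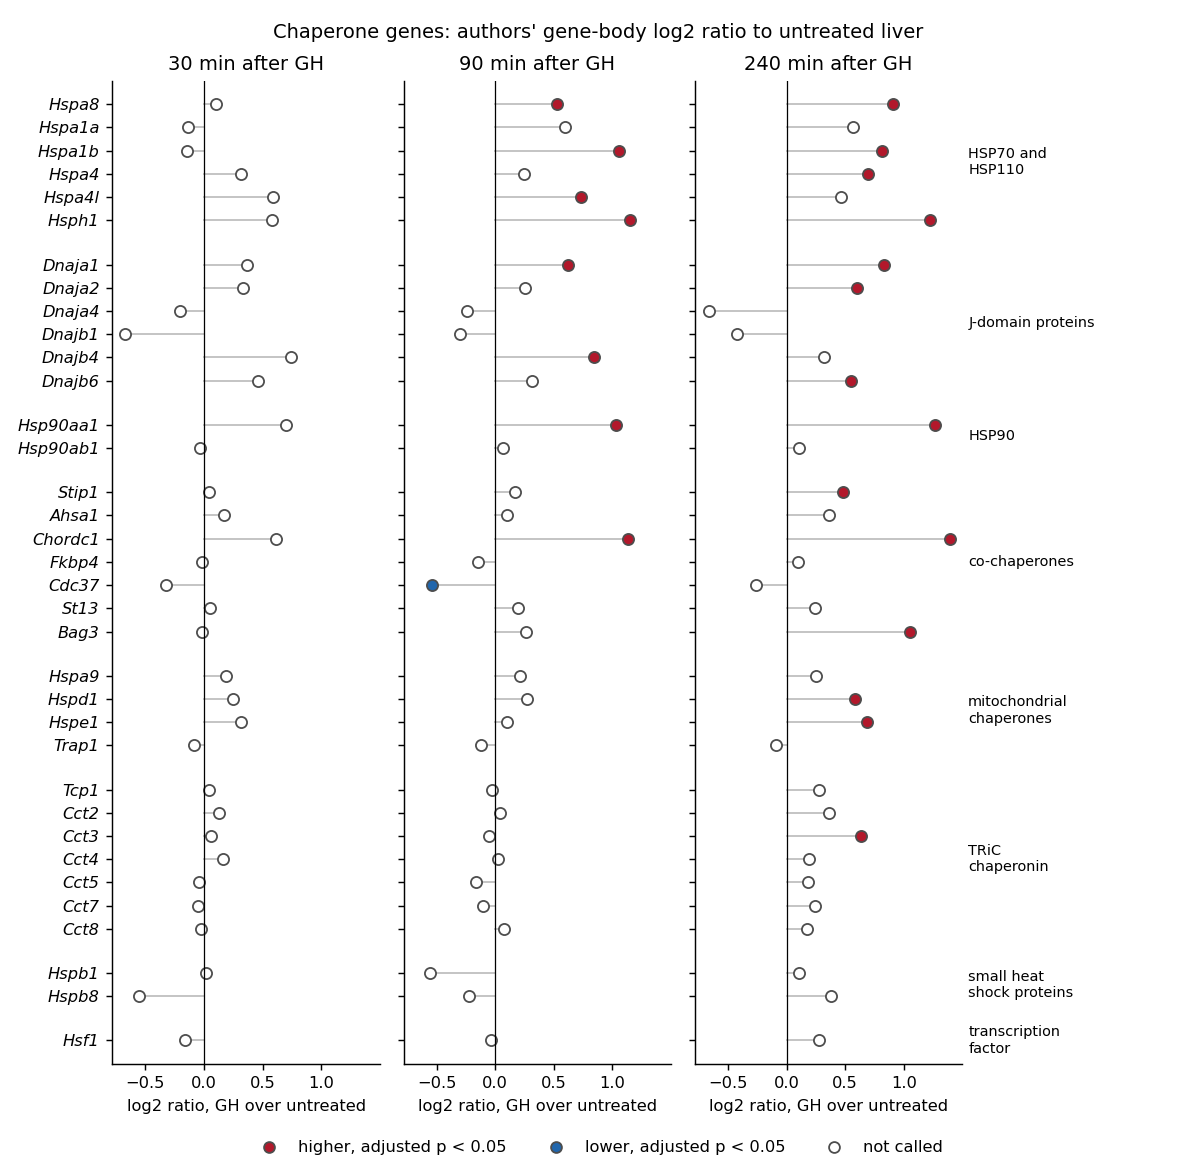
Log2 of the authors' gene-body ratio (GH over untreated, x axis) of each of the 35 chaperone genes (down the page, by role) in panels for 30, 90 and 240 min after GH, with filled marks for called genes. No mark is filled at 30 min, 9 are at 90 min and 14 at 240 min, and the highest is Chordc1 at 1.40.

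Of the HSP70 and HSP110 genes, 4 of 6 rose at 90 min and 4 of 6 at 240 min, and none fell. Of all expressed genes, 15.9% and 14.4% were called higher at these times. Hspa8 (mm9 chr9:40609355-40613282), which encodes the constitutive HSP70 of the cytosol, had 383.7 mean FPKM in untreated livers and 398.9, 554.9 and 747.3 at 30, 90 and 240 min. In the authors' deposited table its ratio was 1.44 at 90 min (adjusted p = 0.0161) and 1.87 at 240 min (adjusted p = 9.79e-08). It was the most abundant chaperone gene in all 4 groups.

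The stress-inducible HSP70 genes Hspa1a and Hspa1b lie 10120 bases apart on mouse chromosome 17. Hspa1b had 6.47 mean FPKM in untreated livers and 5.72, 13.5 and 12.1 at 30, 90 and 240 min. Its ratio in the authors' deposited table was 2.08 at 90 min (adjusted p = 0.0115) and 1.76 at 240 min (adjusted p = 0.00672). Hspa1a had 2.00 mean FPKM in untreated livers and 1.78, 3.05 and 3.23 at 30, 90 and 240 min, and the authors' deposited table gives an adjusted p of 0.483 at 90 min and 0.241 at 240 min. Both showed higher means at the later times, and 1 of the pair was called. The Hspa1b means rested on about 1236 reads over both pools at 90 min and 684 at 240 min, against 327 in untreated livers. These counts are not scaled to library totals. The approximate totals of the pools were 15380000 and 17120000 reads at 90 min, against 7440000 and 10520000 in untreated livers. The copies are hard to separate: 58.8% of the 50-base windows of the Hspa1a transcript also occur in Hspa1b, and the files do not say how shared reads were assigned. Their summed mean was 8.47 FPKM in untreated livers and 7.49, 16.6 and 15.3 at 30, 90 and 240 min.

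The HSP110 genes Hsph1, Hspa4 and Hspa4l encode nucleotide exchange factors of HSP70. Hsph1 (mm9 chr5:150419419-150438890), with 3 units near its start, had 7.59 mean FPKM in untreated livers and 11.0, 16.9 and 18.5 at 30, 90 and 240 min. In the authors' deposited table its ratio was 2.22 at 90 min (adjusted p = 5.52e-05) and 2.34 at 240 min (adjusted p = 2.62e-11). Hsph1 more than doubled by 90 min and was little higher at 240 min. Hspa4 rose at 240 min alone, to 34.96 mean FPKM against 20.9 in untreated livers, with a ratio of 1.61 in the authors' deposited table (adjusted p = 6.71e-05). Hspa4l had 2.27 mean FPKM in untreated livers and 3.33, 3.82 and 3.35 at 30, 90 and 240 min. It was called at 90 min alone, with a ratio of 1.66 in the authors' deposited table (adjusted p = 0.00108), and its log2 ratio of 0.73 there was -0.0033 after subtraction of the fitted dependence on GC content and length. The 3 paralogs passed the threshold at different times, and differences between times were not tested.

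Among the J-domain proteins, 2 of 6 rose at 90 min and 3 of 6 at 240 min, and none fell. The shares of all expressed genes called higher were 15.9% and 14.4%. Dnaja1, a partner of HSP70 in the cytosol, had 28.3 mean FPKM in untreated livers and 35.4, 43.6 and 52.1 at 30, 90 and 240 min. Its ratio in the authors' deposited table was 1.54 at 90 min (adjusted p = 0.00036) and 1.78 at 240 min (adjusted p = 1.67e-06). Dnaja2, its close relative, rose at 240 min, to 45.7 mean FPKM against 29.02 in untreated livers, with a ratio of 1.52 in the authors' deposited table (adjusted p = 0.00107). Dnaja1 and Dnaja2 were thus both called at 240 min, which their relative Dnaja4 was not. Dnajb6, which keeps aggregation-prone proteins soluble, had 22.6 mean FPKM at 240 min, against 14.97 in untreated livers, a ratio of 1.46 in the authors' deposited table (adjusted p = 0.0111).

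Dnajb4 was called at 90 min alone. It had 13.5 mean FPKM in untreated livers and 21.9, 24.2 and 17.4 at 30, 90 and 240 min. Its ratio in the authors' deposited table was 1.79 at 90 min (adjusted p = 2.31e-08) and 1.25 at 240 min (adjusted p = 0.25). It was one of 2 genes of the set called higher at 90 min and not at 240 min, with Hspa4l. The share of all expressed genes with such calls was not counted, and the difference between times was not tested. Dnajb1, the classic heat-inducible HSP40, was not called at any time: it had 14.3 mean FPKM in untreated livers and 8.63, 11.6 and 10.9 at 30, 90 and 240 min. Its ratios in the authors' deposited table were 0.625, 0.813 and 0.746 at 30, 90 and 240 min, with adjusted p of 0.881, 0.357 and 0.119. Dnajb1 means were therefore below the untreated mean in all 3 GH groups, on the opposite side from Hsph1 and Hsp90aa1. Over introns its ratio was 0.342 at 240 min in the authors' deposited table (adjusted p = 0.146). Dnaja4, the least abundant gene of the set, had a ratio of 0.631 at 240 min in the authors' deposited table (adjusted p = 0.212).

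The HSP90 genes of the cytosol differed in their calls. Hsp90aa1 (mm9 chr12:111929245-111934605), the inducible alpha form, had 36.1 mean FPKM in untreated livers and 56.9, 73.7 and 90.3 at 30, 90 and 240 min. In the authors' deposited table its ratio was 1.63 at 30 min (adjusted p = 0.861), 2.04 at 90 min (adjusted p = 1.05e-07) and 2.41 at 240 min (adjusted p = 3.59e-14). Hsp90ab1 (mm9 chr17:45704726-45710210), the constitutive beta form, had 259.9 mean FPKM in untreated livers and 246.3, 272.4 and 291.2 at 30, 90 and 240 min. Its ratio in the authors' deposited table was 1.05 at 90 min and 1.08 at 240 min, with an adjusted p of 1 at both. The alpha form thus more than doubled while the beta form was not called. On the FPKM scale, which is per length, alpha over beta was 0.139 in untreated livers and 0.231, 0.270 and 0.310 at 30, 90 and 240 min. Beta stayed the more abundant form in all 4 groups. No 50-base window of the Hsp90aa1 transcript occurs in that of Hsp90ab1.

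**Figure D2:**
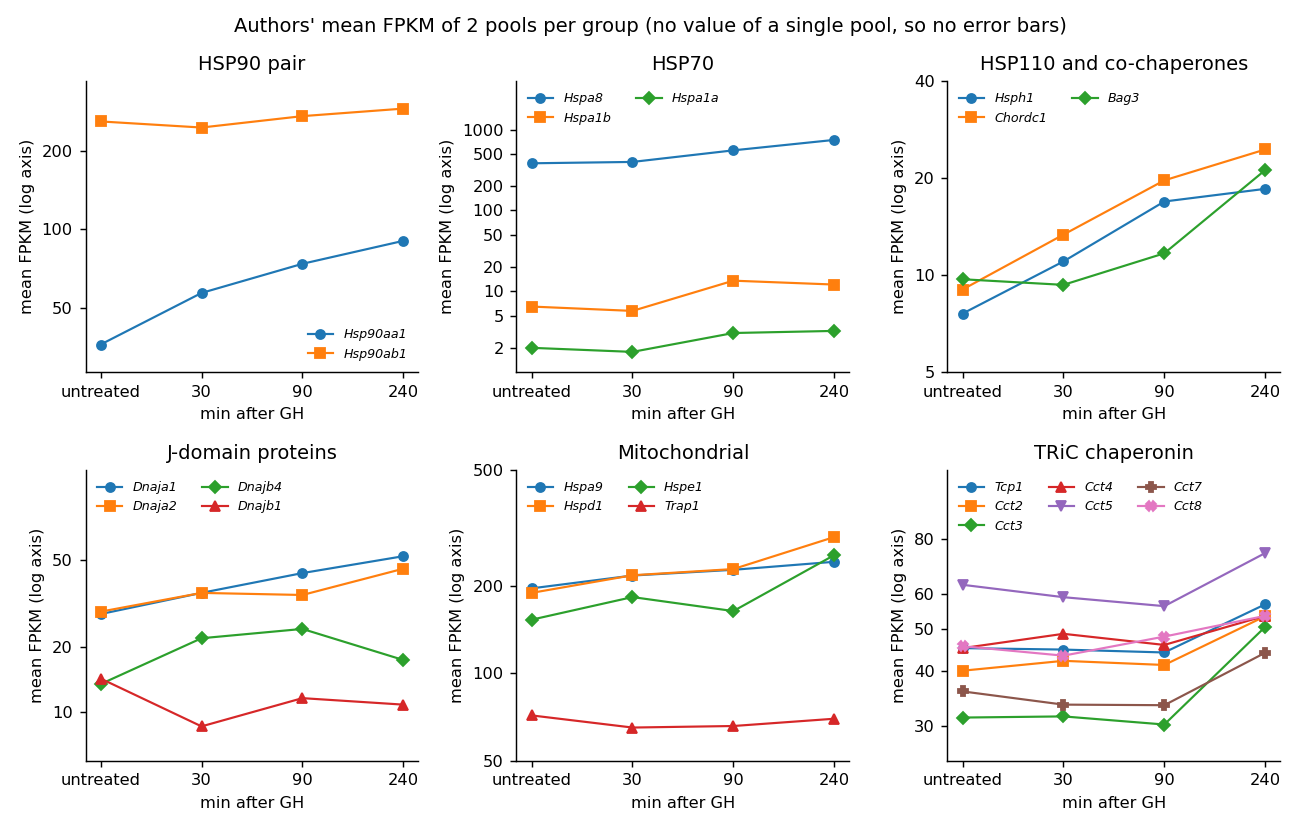
Authors' mean FPKM (log y axis) of 23 chaperone genes in 6 panels by role, in untreated livers and 30, 90 and 240 min after GH at even spacing. Each point is 1 group mean of 2 pools, with no error bar since no pool values are given. Hsp90aa1 climbs to 90.3 FPKM at 240 min beneath a nearly level Hsp90ab1, and the 7 TRiC subunits are all above their untreated mean at 240 min.

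Of the 7 co-chaperones, 1 rose and 1 fell at 90 min, and 3 rose at 240 min. The 14.3% called higher at 90 min was near the 15.9% of all expressed genes, of which 12.5% were called lower. At 240 min 42.9% were called higher, beside 14.4% of all expressed genes. Chordc1 (mm9 chr9:18096710-18118444), a zinc-binding partner of HSP90 whose start held the longest run of units, had 9.02 mean FPKM in untreated livers and 13.3, 19.7 and 24.5 at 30, 90 and 240 min. Its ratio in the authors' deposited table was 2.19 at 90 min (adjusted p = 4.68e-10) and 2.63 at 240 min (adjusted p = 2.8e-13), the highest of the 35 genes at that time. Bag3 (mm9 chr7:135667096-135690493), which links HSP70 to small heat shock proteins and to autophagy, had 9.71 mean FPKM in untreated livers and 9.32, 11.7 and 21.2 at 30, 90 and 240 min. Bag3 was not called at 90 min (ratio 1.2004, adjusted p = 0.468) and was 2.07-fold higher at 240 min (adjusted p = 1.05e-06) in the authors' deposited table. Its means thus stood near the untreated one at 30 min and above it mainly at 240 min. Stip1, the adaptor that hands clients from HSP70 to HSP90, had 40.02 mean FPKM at 240 min, against 27.5 in untreated livers, a ratio of 1.40 in the authors' deposited table (adjusted p = 0.0126).

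Cdc37, the adaptor that brings kinases to HSP90, was the only one of the 35 genes called lower. It had 30.4 mean FPKM in untreated livers and 23.4, 20.9 and 26.3 at 30, 90 and 240 min. Its ratio in the authors' deposited table was 0.687 at 90 min (adjusted p = 0.000358) and 0.836 at 240 min (adjusted p = 0.372). Ahsa1, which stimulates the ATPase of HSP90, and St13, which binds HSP70, were not called, and the authors' deposited table gives them log2 ratios of 0.36 and 0.24 at 240 min. Fkbp4, an immunophilin of steroid receptor complexes, had 59.5 mean FPKM at 240 min, against 53.5 in untreated livers, and was not called either.

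Of the mitochondrial chaperones, the chaperonin pair rose at 240 min and Hspa9 and Trap1 were not called at any time. That was 2 of 4 genes (50%) at 240 min, beside 14.4% of all expressed genes. Hspd1 and Hspe1 encode HSP60 and its lid HSP10 and start 215 bases apart in opposite directions on mouse chromosome 1. Hspd1 had 188.7 mean FPKM in untreated livers and 217.0, 227.9 and 293.6 at 30, 90 and 240 min, and Hspe1 had 152.7 in untreated livers and 182.6, 163.4 and 254.4 at the same times. In the authors' deposited table the ratio at 240 min was 1.4998 for Hspd1 (adjusted p = 0.000944) and 1.61 for Hspe1 (adjusted p = 0.000795). The neighbours thus had close ratios at that time, and Hspd1 over Hspe1 on the FPKM scale was 1.154 at 240 min, against 1.24 in untreated livers. Hspa9, the mitochondrial HSP70, had 241 mean FPKM at 240 min, against 196 in untreated livers (adjusted p = 0.335 in the authors' deposited table). Trap1, the mitochondrial HSP90, had ratios of 0.918 to 0.941 at the 3 times in the authors' deposited table.

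TRiC folds actin, tubulin and other proteins inside a double ring of 8 different subunits, of which 7 are in the set. None was called at 30 or 90 min, and at 90 min their log2 ratios ran from -0.16 to 0.07 in the authors' deposited table. At 240 min all 7 ratios were above 1, with log2 ratios of 0.18 to 0.63 in the authors' deposited table. Of all expressed genes, 53% had a ratio above 1 at that time. Cct3 was the one called (14.3%), a share near the 14.4% of all expressed genes. After subtraction of the fitted dependence on GC content and length, Tcp1, Cct8, Cct7 and Cct4 were at 0.003 to 0.06 at 240 min. Cct5, Cct2 and Cct3 were at 0.21, 0.30 and 0.52. Cct3 had 50.4 mean FPKM at 240 min, against 31.4 in untreated livers, with a ratio of 1.549 in the authors' deposited table (adjusted p = 0.000446). The remaining subunit, Cct6a, is outside the set and was also called at 240 min, at 47.4 mean FPKM against 30.7 in untreated livers (log2 ratio 0.57, adjusted p = 0.0020 in the authors' deposited table). These 2 were the subunits with the lowest untreated means, and at 240 min the 7 members lay between 44.1 and 74.3 mean FPKM, against 31.4 to 62.9 in untreated livers.

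Neither small heat shock protein was called. Hspb8, the partner of Bag3, was abundant, with 117.7 mean FPKM in untreated livers and 77.4, 101 and 158 at 30, 90 and 240 min. The smallest adjusted p of Hspb8 in the authors' deposited table was 0.101 over the gene body, at 240 min. Over introns its ratio in the authors' deposited table was 0.436, 0.676 and 0.669 at 30, 90 and 240 min (adjusted p = 0.13, 0.0578 and 0.0528). Hspb1 had 9.36 mean FPKM at 240 min, against 7.95 in untreated livers. Hsf1, the transcription factor of the heat shock response, had 7.92 mean FPKM in untreated livers and 6.83, 7.73 and 9.93 at 30, 90 and 240 min, and was not called. Its mRNA level says nothing of HSF1 protein activity, which was not measured. Of the 35 genes 17 were called over the gene body at some time and 18 at none. The 18 had log2 ratios at 240 min from -0.66 for Dnaja4 to 0.56 for Hspa1a in the authors' deposited table.

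Intronic reads gave calls for fewer genes. At 30 min none of the 35 was called over introns in the authors' deposited table, when 0.754% of expressed genes were called higher and 0.475% lower. At 90 min 6 (17.1%) were called higher and 0 lower, beside 7.29% and 6.11% of expressed genes. At 240 min 2 (5.71%) were called higher and 0 lower, beside 4.99% and 5.54% of expressed genes, a share close to the background. The median intronic log2 ratio of the set was 0.08, 0.28 and 0.07 at 30, 90 and 240 min, beside 0, 0.03 and 0 over expressed genes.

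The 6 genes called over introns at 90 min were Hsph1, Chordc1, Bag3, Hspd1, Dnaja2 and Dnaja1. Chordc1 introns had 0.154 mean FPKM in untreated livers and 0.267, 0.502 and 0.431 at 30, 90 and 240 min, with a ratio of 2.19 at 90 min (adjusted p = 0.00046) and 2.14 at 240 min (adjusted p = 0.00172) in the authors' deposited table. Bag3 introns had 0.108 mean FPKM in untreated livers and 0.148, 0.332 and 0.349 at 30, 90 and 240 min, with a ratio of 2.04 at 90 min (adjusted p = 0.00991) and 2.58 at 240 min (adjusted p = 0.00762) in the authors' deposited table. Chordc1 and Bag3 were the 2 genes called over introns at both later times. Hsph1 introns had 0.550 mean FPKM at 90 min, against 0.171 in untreated livers, with a ratio of 2.20 in the authors' deposited table (adjusted p = 0.0185). The intronic ratio at 90 min in the authors' deposited table was 1.74 for Hspd1 (adjusted p = 0.0184), 1.66 for Dnaja2 (adjusted p = 0.0166) and 1.61 for Dnaja1 (adjusted p = 0.0202). All 6 were called higher over the gene body at 240 min, and 3 of them (Hsph1, Chordc1 and Dnaja1) already at 90 min. Bag3, Hspd1 and Dnaja2 were thus called over introns at 90 min and over the gene body at 240 min. Both measures come from the same libraries, so this order is not an independent check of either. How often other expressed genes showed the same order was not counted, so it is not shown to be particular to chaperones.

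Other genes were called over the gene body and not over introns. Hsp90aa1 introns had 0.599 mean FPKM in untreated livers and 0.551, 1.01 and 0.603 at 30, 90 and 240 min, with a ratio of 1.21 at 90 min (adjusted p = 1) and 0.809 at 240 min (adjusted p = 1) in the authors' deposited table. Hspa8 introns had 5.84 mean FPKM in untreated livers and 5.64, 10.3 and 8.65 at 30, 90 and 240 min, with a ratio of 1.197 at 90 min (adjusted p = 0.964) and 1.11 at 240 min (adjusted p = 1) in the authors' deposited table. Hspa1a and Hspa1b are listed at 0 over introns in all groups, and both lack introns. Over genes above 1 intronic FPKM, the deposited intronic ratio was below the quotient of mean FPKM, by a median log2 of 0.57 at 90 min and 0.39 at 240 min. Quotient over ratio ran from 1.458 to 1.519 at 90 min and from 1.216 to 1.388 at 240 min (5% to 95% of those genes). Intronic means and ratios are therefore on different scales, and most chaperone genes lie below 1 intronic FPKM. The sign of the log2 value differed between quotient and ratio for 7 of 33 genes at 90 min and 6 of 32 at 240 min, none of them called. Neither the length nor the total used for intronic FPKM is stated in the files.

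**Figure D3:**
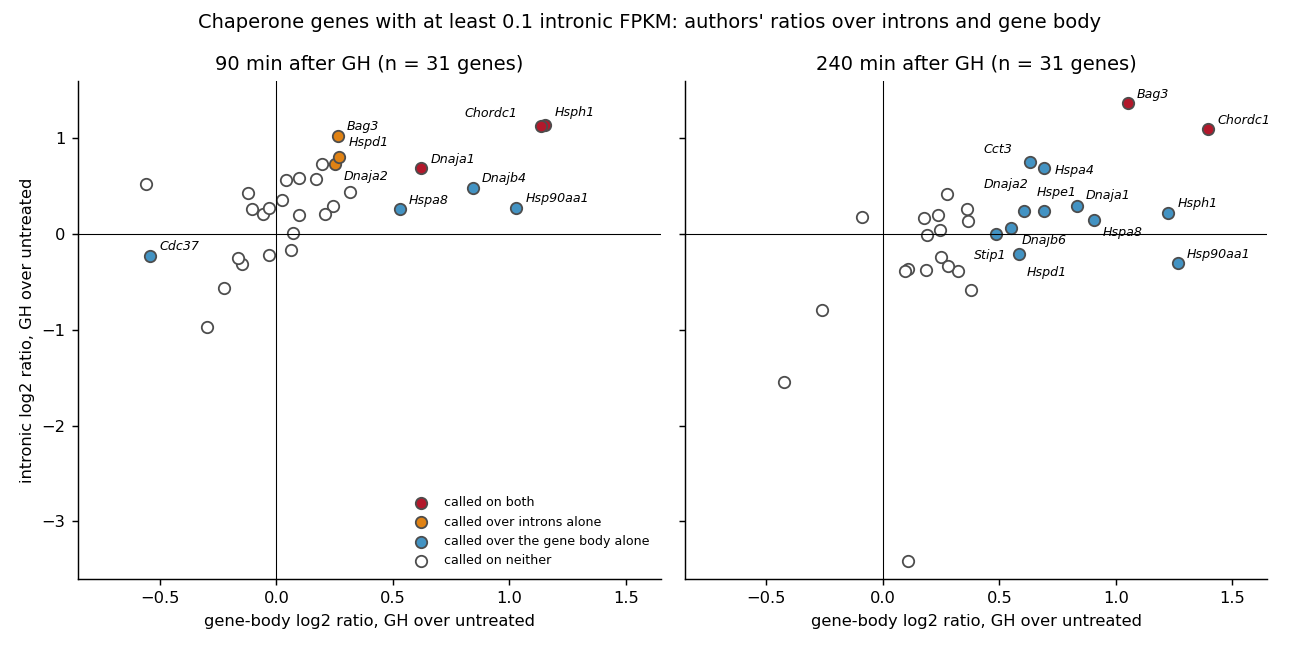
Log2 of the authors' ratio over introns (y axis) and over the gene body (x axis), GH over untreated, at 90 min (left) and 240 min (right) for the 31 chaperone genes with at least 0.1 intronic FPKM, coloured by which measure was called. At 90 min Bag3, Hspd1 and Dnaja2 are called over introns alone, and at 240 min Bag3 and Chordc1 are called on both. The point near -3.4 is Hspb1, whose introns are listed at 0 at 240 min.

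Ratios in these libraries went with transcript length and GC content across all genes. Over 10314 expressed genes, Spearman's rho between the gene-body log2 ratio and the length of the longest annotated transcript was 0.08, 0.49 and 0.19 at 30, 90 and 240 min, and with GC content -0.58, -0.51 and -0.38. Over the 35 chaperone genes, which share all libraries, rho with length was 0.31, 0.40 and 0.24 and with GC content -0.64, -0.38 and -0.24. The 8 genes called higher at 90 min had a median length of 4838.5 nt, against 2620 nt for those not called, while at 240 min the medians were 3038.5 and 2967 nt. At 90 min 3 of 4 chaperone genes of at least 5000 nt were called higher, beside 43.5% of all genes of that length. Of the 14 with 2000 to 3000 nt, 1 was called higher at 90 min beside 6.98% of all such genes, and 6 at 240 min beside 12.9%. The part of length and GC content in the calls was not tested.

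With that trend subtracted over all genes, the median log2 ratio of the set was 0.07, 0.11 and 0.36 at 30, 90 and 240 min, and 29 of 35 values were above 0 at 240 min. At 90 min Hspa4l, whose longest annotated transcript of 9479 nt is the longest in the set, was at -0.0033, beside a deposited log2 ratio of 0.73, and Dnaja1 was at 0.20, beside 0.62. Chordc1, long and poor in GC, was at 0.54 at 90 min and 0.88 at 240 min, beside deposited log2 ratios of 1.13 and 1.40. Bag3 and Hspa1b, rich in GC, moved up instead, to 1.22 for Bag3 at 240 min and 1.36 for Hspa1b at 90 min, beside deposited log2 ratios of 1.05 and 1.06. At 240 min none of the 14 genes called higher had less than 0.25 left.

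**Figure D4:**
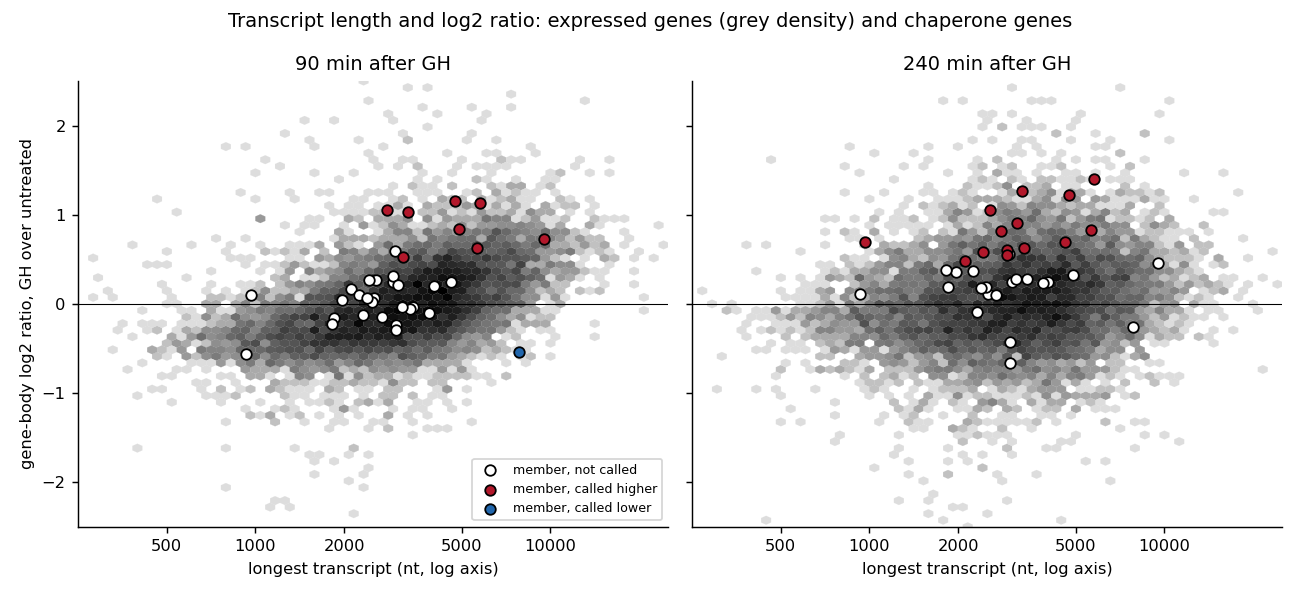
Gene-body log2 ratio (GH over untreated, y axis, clipped for the grey genes at 2.5 either way) against the longest annotated transcript in nt (log x axis) at 90 min (left) and 240 min (right). Grey hexagons show the density of expressed genes, darker for more genes, and points are the 35 chaperone genes, red where called higher and blue where called lower. At 90 min the red points lie at 2803 nt or more, and at 240 min they start at 964 nt.

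Other genes of the same pathways were read from lists of related chaperones, with members of at least 1 mean FPKM counted. None of these lists had a call over the gene body at 30 min. The list counts stand beside 15.9% of all expressed genes called higher and 12.5% lower at 90 min. At 240 min these shares were 14.4% and 8.58%. The share of all expressed genes called at both times was not counted. Of 16 other HSP90 co-chaperones, 5 (31.2%) rose and 2 fell at 90 min, and 5 (31.2%) rose and 0 fell at 240 min. The same 5 rose at both times: Ptges3, Ppid, Fkbp5, Cdc37l1 and Ahsa2. Ptges3, the p23 protein that stabilises HSP90 complexes with steroid receptors, had 108.4 mean FPKM at 240 min, against 54.02 in untreated livers. Fkbp5, an immunophilin of steroid receptor complexes and a glucocorticoid target, had 10.4 mean FPKM at 240 min, against 2.63 in untreated livers, a ratio of 3.87 in the authors' deposited table (adjusted p = 6.87e-12). Its relative Fkbp4, which is in the set, was not called. The 2 that fell at 90 min were Fkbp8 and Pih1d1, and neither was called at 240 min.

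Of 20 other HSP70 partners, J-domain proteins and exchange factors, 4 (20%) rose and 2 fell at 90 min. At 240 min 4 (20%) rose and 0 fell. The shares that rose were near those of all expressed genes, 15.9% and 14.4%. Those that rose at 90 min were Dnajc5, Bag4, Dnajb14 and Dnajc13, and those that rose at 240 min were Dnajc5, Dnajc2, Bag5 and Dnajc21, so only Dnajc5 was called at both. Dnajc5, the J-domain protein of secretory vesicles, had 21.96 mean FPKM at 240 min, against 11.6 in untreated livers (adjusted p = 1.52e-05 in the authors' deposited table). Bag1 and Stub1, an exchange factor and the ubiquitin ligase that marks HSP70 clients for degradation, fell at 90 min, to 43.3 mean FPKM for Bag1 against 54.7 in untreated livers and to 24.6 for Stub1 against 32.7.

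Of 11 prefoldin, TRiC and helper genes, 0 rose and 1 fell at 90 min (Pfdn5), and 2 (18.2%) rose at 240 min, Cct6a and Pdcl, a share near that of all expressed genes. Of 12 other mitochondrial chaperones and proteases, 1 fell at 90 min (Clpp), and at 240 min 1 rose (the protease Yme1l1) and 1 fell (Grpel2, an exchange factor of mitochondrial HSP70). None of 3 other small heat shock genes was called. Among other heat shock factors and regulators, Hsbp1, which binds HSF1, and the factor Hsf4 fell at 90 min. Hsbp1 had 41.8 mean FPKM at 90 min, against 53.2 in untreated livers, and Hsf4 had 4.34 at 90 min, against 6.26 in untreated livers.

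Chaperones of the endoplasmic reticulum and their regulators were the most alike group and had more calls at 240 min. Of 21 genes, 5 rose and 3 fell at 90 min, and 16 (76.2%) rose and 0 fell at 240 min, with a median log2 ratio of 0.74 in the authors' deposited table, beside 14 of 35 and 0.36 for the cytosolic and mitochondrial set. Over introns 12 of the 21 were called higher at 240 min, beside 2 of the 35 and 4.99% of all expressed genes. Dnajb9, a J-domain protein of the endoplasmic reticulum, had 120 mean FPKM at 240 min, against 28.4 in untreated livers, a ratio of 4.07 in the authors' deposited table (adjusted p = 1.09e-35). Xbp1, a transcription factor of the unfolded protein response, had 325 mean FPKM at 240 min, against 129.5 in untreated livers (adjusted p = 1.41e-10 in the authors' deposited table). Hspa5, the HSP70 of that compartment, had 522 mean FPKM at 240 min, against 215 in untreated livers, and Hsp90b1, its HSP90, had 376 against 257. The difference between these groups of genes was not tested.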

How the data were processed

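Liver RNA of 8 libraries, 2 pools for each of 4 groups, is described. Per the submitters' processing notes, which state no versions or settings, TopHat2, featureCounts, edgeR and the mm9 build are named. The FPKM of a group is the authors' mean of its pools, per the file headers. The intronic signal, called FPKM per the file headers, is the authors' mean over intronic reads. The ratio of GH over untreated and the adjusted p-value are the authors', per the file headers, with no method of adjustment stated. A test across pools was not possible, because the table holds no pool values.

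The members and lists were chosen with earlier results of these data known. Named were all called members and, from each related list, the called gene with the smallest adjusted p at each time. Other called genes of these lists, Cct6a, Socs2 and the uncalled members with values were chosen after their values were seen. A gene was expressed from a mean of 1 FPKM over the 4 groups. For 96.1% of expressed genes a transcript length and GC content could be had by symbol from GENCODE M21 (longest transcript). A robust trend in log2 length and GC content was fitted over all of them and subtracted, after tests on simulated data. Library totals came from the smallest FPKM steps: of low values, 51.8% to 61.8% per group were whole reads within a tolerance of 0.001, so the totals are approximate. One result of the related lists is not reported here. Promoter windows are RefSeq's on GRCm38.p6. Gene coordinates from the deposited table are on mm9. Alternatives tried were an adjusted p of 0.01, a minimum of 2-fold, filters on low values, quotients of mean FPKM with pseudocounts of 1 and 0.1, the median of expressed genes subtracted, and the trend subtracted. Counting calls that keep their sign without the trend was chosen after seeing the data. Python 3.11.15, numpy 2.4.6, pandas 2.3.3, statsmodels 0.14.6 and matplotlib 3.10.9 were used.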

Additional observations from a re-analysis of the deposited data

How the results depend on the processing

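Under the alternatives 31 values were counts of 0 that these settings could not move and say nothing of stability. Of 50 other counts and medians, 43 stayed within 1.5 times the count or within 0.1 of the log2 median and 7 moved. With a minimum of 2-fold, 4 chaperone genes were higher and 0 lower over the gene body at 90 min, 4 were higher at 240 min, and 3 were higher over introns at 90 min. At an adjusted p below 0.01, 2 were higher over introns at 90 min. With the quotient of mean FPKM and a pseudocount of 0.1 in place of the ratio, the intronic median log2 value was 0.63 at 90 min and 0.25 at 240 min; this quotient lacks the authors' scaling. With the length and GC trend subtracted, 37 of 51 log2 ratios of single genes moved by over 0.1 and 1 called value reversed, Hspa4l at 90 min (-0.0033). Of uncalled values 5 changed sign with it, Hspa8, Hspa1b, Bag3 and Cct3 at 30 min and Hspa4l at 240 min (-0.03). Under the other settings 2 of 153 moved by over 0.1, and the uncalled value of Stip1 at 30 min changed sign with the quotients. No paired analysis was possible because the table gives no value of a single pool, and for the same reason no pool could be left out. Group means of 2 pools hide any pool that stands apart. By the approximate totals the smallest pool was in the 240 min group (5940000 reads), and its effect on low intronic values was not tested.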
